A study of Mus musculus with 4 samples.

Results

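The genes described here are the Wnt ligands of the mouse together with their receptors, co-receptors and secreted antagonists, the 2 proteins that make ligands ready for release, and the first intracellular and nuclear components. They were taken from the deposited table by symbol, among genes of the protein_coding class, which gave 66 of the 49548 genes listed. The rule used names only and no measured value. By role they comprised 19 ligands, 2 secretion factors, 10 secreted antagonists, 10 Frizzled receptors, 5 co-receptors, 9 genes of the R-spondin module, 7 cytoplasmic components and 4 nuclear factors.

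The cells were Neuro2A, a neuroblastoma line of mouse origin. In one stable line doxycycline switched on a Prox1 transgene (genotype Prox1-Tet-On), and in the other it switched on GFP (genotype GFP-Tet-On). Both lines were kept under G418 and hygromycin selection, and both groups received doxycycline at 1 µg/mL, so the controls carried the agent and an induced transgene too; the time of induction is not given in the sources used here. Prox1 is a homeodomain transcription factor, and the comparison asks which transcripts differ when it, rather than GFP, is induced. There were 2 libraries per group, made from transcript 3′ ends. Each transgene sat in its own stable line, so the transgene and the line cannot be told apart. Nothing in the labels says that the replicates were separate cultures, and the p-values below measure no more than the spread among the 4 libraries, possibly a technical one.

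Wnt proteins are secreted, lipid-modified ligands. In the branch that works through beta-catenin, a Wnt binds a Frizzled receptor and the co-receptor Lrp5 or Lrp6, Dishevelled and Axin are drawn to the membrane, beta-catenin escapes breakdown, and it acts with Tcf and Lef factors on target genes. Other branches run through Ryk, Ror receptors and the planar polarity proteins, which steer cell shape and axon growth. In the developing nervous system Wnts are known for patterning, for the balance of proliferation and differentiation, and for axon guidance.

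The 4 libraries summed to between 6798014 and 7683100 normalised counts, from an estimated 5910000 to 9610000 reads, and 3 reads in one library corresponded to 2.40 to 3.62 normalised counts. Prox1 itself read 1304 and 2505 normalised counts in the Prox1 libraries compared with 2 and 3 in the GFP libraries, which matched the labels. Across all genes tested, replicates correlated at r = 0.969 in either group and libraries of different groups at 0.901 to 0.915 (genes are not independent replicates). Of 11 markers of sympathetic neuroblasts, the cell type of the labels, 10 passed the minimum, and 8 of the 10 fell in Prox1 cells and 0 rose (limma), with a summed level of 5531 to 5994 against 11648 to 12187 normalised counts. Of all genes tested limma called 8.41% lower, and 2 of the 10 are called in the authors' deposited table. Markers of fibroblasts (8), epithelium (7), endothelium (5) and blood (9 gene identifiers) all stayed below the minimum. Their summed levels were 2 to 5 against 3 to 18 for fibroblasts, 7 to 12 against 0 to 1 for epithelium, 2 to 4 against 17 to 18 for endothelium, and 15 in both Prox1 libraries against 8 to 17 for blood. The defining markers listed at 0 throughout numbered 3, 3, 2 and 3 in that order. In bulk RNA, fewer cells of a type and less RNA per cell cannot be told apart.

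Many of the 66 genes were low or absent, as were many genes of the whole table. In every library 24 of the 66 were at 0, another 19 had a mean below 10 normalised counts, and 23 reached that minimum and were tested. Of the 49548 genes of all classes, 24187 were above 0 in some library and 13290 reached the minimum. Of the 23, limma (two-sided, Benjamini-Hochberg adjustment over all 13290 genes tested, threshold 0.05) called 7: Fzd6 rose, and Dkk3, Dkk1, Wnt3, Wnt5a, Fzd4 and Dvl1 fell in Prox1 cells. That is 30.4% of the tested members, beside 16.0% of all tested genes. In single directions the background was 7.57% of genes called higher and 8.41% called lower, against 1 and 6 of the 23. At an unadjusted p under 0.05 there were 9 members, beside 31.7% of all genes.

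The groups did not overlap for 16 of the 23, with 11 lower and 5 higher in both Prox1 libraries, beside 58.8% of all tested genes. The median difference of the 23 was -0.31 on the log2(normalised count + 1) scale, against -0.0017 for all genes tested, of which 50.1% were lower in Prox1 cells. Fzd6, Tcf7l1 and Wnt5a reached the minimum only through the group where they were high, so these counts and the median describe the tested genes and do not stand for all 66. Summed over all 66 genes the level was 3641 to 3807 normalised counts in the Prox1 libraries and 5624 to 5689 in the GFP libraries. Most of that difference came from 3 genes, so the sum does not describe the family as a whole. They were Dkk1 (means 616.5 in Prox1 against 1455.5 in GFP cells), Dkk3 (190.0 against 598.5) and Ryk (830.0 against 1239.0, not called). Over the same libraries the summed level of the sympathetic neuroblast markers was also lower in Prox1 cells, and its part in the Wnt values was not tested.

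The authors' deposited table gives a DESeq adjusted p for 22 of the 66 genes, and 2 of them, Dkk3 and Fzd6, are under 0.05, beside 4.62% of all genes with such a value. None of the limma calls survived the loss of a library: without any 1 of the 4, limma called 0 genes in the whole table, with 2461, 2844, 2981 and 2365 genes at an unadjusted p under 0.05 when Prox1 replicate 1, Prox1 replicate 2, GFP replicate 1 and GFP replicate 2, respectively, were left out. The adjusted p of the 7 called members then lay between 0.142 and 0.294. With no minimum on the level, limma also called 0 genes, 5032 of them at an unadjusted p under 0.05, and the 7 had adjusted p between 0.126 and 0.188.

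**Figure D1:**
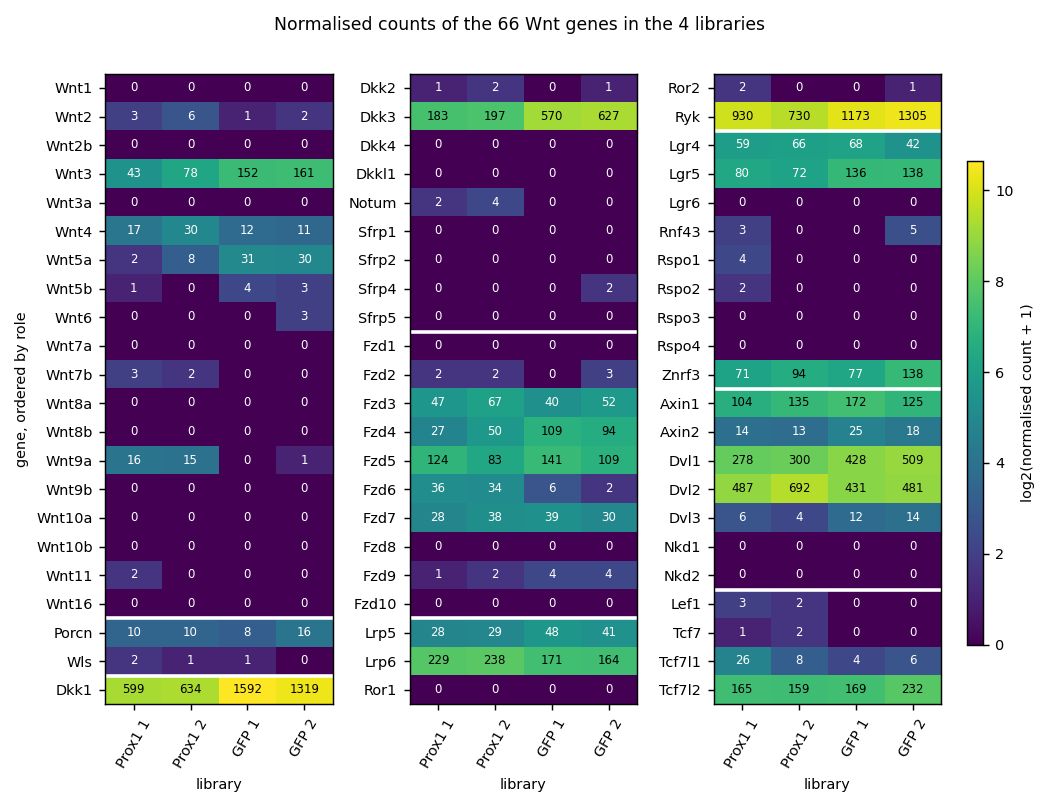
Normalised counts of the 66 Wnt genes (rows, ordered by role, white lines between roles) in the 4 libraries (columns), printed in each cell and coloured by log2(normalised count + 1). The 24 dark rows are the genes at 0 throughout, and the Dkk1 row steps from 599 and 634 in the Prox1 libraries up to 1592 and 1319 in the GFP libraries.

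**Figure D2:**
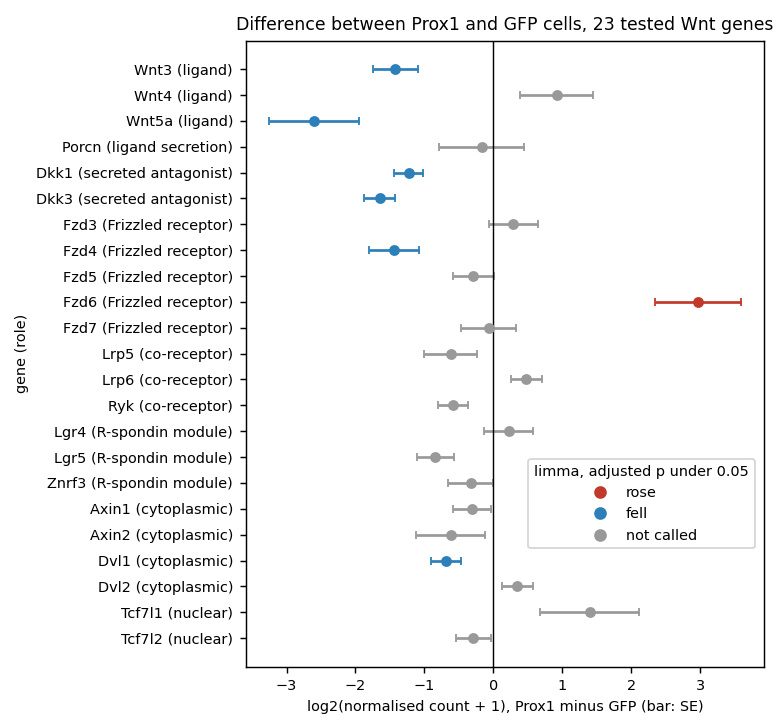
Difference between Prox1 and GFP cells on the log2(normalised count + 1) scale (horizontal axis, points with SE bars, n = 2 per group) for the 23 tested genes, with the role in brackets. Coloured points passed an adjusted p of 0.05 (limma): Fzd6 lies to the right at 2.97, and the 6 genes that fell lie between -2.60 and -0.69.

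Of the 19 ligands 3 were tested, and the transcripts of 2 fell in Prox1 cells, beside 8.41% of all tested genes called lower. Of the 2, Wnt5a reached the minimum only through the GFP libraries, so this count is a description. Wnt3, a ligand of the beta-catenin branch, read 43 and 78 normalised counts in the Prox1 libraries compared with 152 and 161 in the GFP libraries. Both Prox1 libraries lay below both GFP libraries, and the 2 Prox1 libraries differed from each other more than the 2 GFP libraries did. Its means were 60.5 ± 24.7 and 156.5 ± 6.36 (SD, n = 2), a 2.59-fold lower level in Prox1 cells, with a log2 difference of -1.42 ± 0.32 (SE; limma adjusted p = 0.0111). The gene (ENSMUSG00000000125) lies on the plus strand of mm10 at chr11:103774150-103817957.

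Wnt5a is best known for signalling that does not run through beta-catenin, by way of Ror2 and Ryk. It read 2 and 8 normalised counts in the Prox1 libraries compared with 31 and 30 in the GFP libraries, so the groups were far apart and the level in Prox1 replicate 1 was below that of 3 reads. The means were 5.0 ± 4.24 and 30.5 ± 0.71 (SD, n = 2), 6.10-fold lower in Prox1 cells, with a log2 difference of -2.60 ± 0.65 (SE; limma adjusted p = 0.0173). Wnt5a (ENSMUSG00000021994) lies at chr14:28504750-28527447 on the plus strand and overlaps Gm2670 on the opposite strand, which was at 0 in every library. In the authors' deposited table the DESeq adjusted p was 0.076 for Wnt3 and 0.147 for Wnt5a, neither under 0.05. The log2 difference of Wnt5a was -1.81 without Prox1 replicate 1 and -3.39 without Prox1 replicate 2, and that of Wnt3 -0.99 and -1.84; with each library left out in turn the adjusted p ranged from 0.142 to 0.289 for Wnt5a and from 0.156 to 0.294 for Wnt3.

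Wnt4, the third tested ligand, was higher in both Prox1 libraries but did not pass the test. It read 17 and 30 normalised counts in the Prox1 libraries against 12 and 11, with no overlap and a log2 difference of 0.92 ± 0.53 (SE; limma adjusted p = 0.255). Wnt9a had too low a mean to be tested, at 16 and 15 against 0 and 1 normalised counts, a ratio of 31.0 with an exact 95% interval of 5.17 to 1260. That interval covers counting error only and treats normalised counts as reads. Wnt2 read 3 and 6 against 1 and 2 (ratio 3.0, interval 0.749 to 17.2), and Wnt5b 1 and 0 against 4 and 3 (ratio 0.143, interval 0.00317 to 1.11). Both intervals included equal levels. Wnt5b overlaps Fbxl14 on the opposite strand, which read 359 to 599. Wnt6, Wnt7b and Wnt11 had at most 3 normalised counts in any library. The other 10 ligands, Wnt1, Wnt2b, Wnt3a, Wnt7a, Wnt8a, Wnt8b, Wnt9b, Wnt10a, Wnt10b and Wnt16, were at 0 in all 4. Summed over the 19, ligand transcripts came to 87 to 139 normalised counts in the Prox1 libraries and 200 to 211 in the GFP libraries.

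Transcripts of the secretion factors were near the lower limit. Porcn, the acyltransferase that adds the lipid to Wnts in the endoplasmic reticulum, read 10 and 10 normalised counts in the Prox1 libraries compared with 8 and 16 in the GFP libraries. The Prox1 values lay inside the GFP range, and the log2 difference was -0.17 ± 0.62 (SE; limma adjusted p = 0.877). Wls, the carrier that takes lipid-modified Wnts to the cell surface, had at most 2 normalised counts in any library.

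The secreted antagonists held the largest summed difference of the 8 roles, 785 to 837 normalised counts in Prox1 cells against 1949 to 2162 in GFP cells, nearly all of it from 2 Dickkopf genes. Dkk1 binds Lrp5 and Lrp6 and keeps them from joining a Wnt and Frizzled. It read 599 and 634 normalised counts in the Prox1 libraries compared with 1592 and 1319 in the GFP libraries. Each Prox1 value was under the lower GFP value by a margin wider than either group's own range. The means were 616.5 ± 24.7 and 1455.5 ± 193 (SD, n = 2), 2.36-fold lower in Prox1 cells, with a log2 difference of -1.23 ± 0.21 (SE; limma adjusted p = 0.00252). The authors' deposited table gives it a DESeq adjusted p of 0.0575. Dkk1 (ENSMUSG00000024868) lies at chr19:30545863-30549665 on the minus strand.

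Dkk3 is the divergent member of the Dickkopf family, whose effect on Wnt signalling is reported to depend on the cell. It read 183 and 197 normalised counts in the Prox1 libraries compared with 570 and 627 in the GFP libraries, with replicates close together and the groups well apart. Its means were 190.0 ± 9.9 and 598.5 ± 40.3 (SD, n = 2), and the log2 difference was -1.65 ± 0.22 (SE; limma adjusted p = 0.000552), the lowest p of the 23. The authors' deposited table gives Dkk3 a DESeq adjusted p of 0.00231. The gene (ENSMUSG00000030772) lies at chr7:112116017-112159057 on the minus strand. With each library left out in turn, the log2 difference stayed between -1.72 and -1.58 for Dkk3 and between -1.37 and -1.10 for Dkk1, while the limma adjusted p ranged from 0.142 to 0.246 and from 0.162 to 0.246.

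The remaining antagonists were absent or nearly so. Notum, the enzyme that strips the lipid from Wnts, read 2 and 4 normalised counts in the Prox1 libraries and 0 in both GFP libraries. Dkk2 and Sfrp4 had at most 2 in any library, which is under the level of 3 reads. Dkk4, Dkkl1, Sfrp1, Sfrp2 and Sfrp5 were at 0 in all 4; the Sfrp proteins are decoys that bind Wnts through a Frizzled-like domain.

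The upstream sequences of 4 of the 6 genes that fell are shown because these are the members that moved together and the RefSeq table used here holds a window for them. Each is the 250 bases before the RefSeq transcription start in GRCm38.p6, the assembly that mm10 is made from, written 5′ to 3′ on the gene's own strand. The positions are chr19:30549497-30549746 (minus strand) for Dkk1, chr11:103773925-103774174 (plus) for Wnt3, chr7:89404116-89404365 (plus) for Fzd4 and chr4:155847152-155847401 (plus) for Dvl1. Capitals mark matches on either strand. The motifs searched were the core that Tcf and Lef factors bind, written CTTTGAA or CTTTGAT, the TATAAA core of the box found near many starts, and the GC box core GGGCGG, which reads CCGCCC where the match is on the opposite strand.
Dkk1: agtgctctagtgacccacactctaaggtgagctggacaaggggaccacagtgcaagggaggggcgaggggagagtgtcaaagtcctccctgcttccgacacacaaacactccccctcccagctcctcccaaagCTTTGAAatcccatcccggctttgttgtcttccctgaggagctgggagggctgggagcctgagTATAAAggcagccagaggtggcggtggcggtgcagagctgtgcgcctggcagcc
Wnt3: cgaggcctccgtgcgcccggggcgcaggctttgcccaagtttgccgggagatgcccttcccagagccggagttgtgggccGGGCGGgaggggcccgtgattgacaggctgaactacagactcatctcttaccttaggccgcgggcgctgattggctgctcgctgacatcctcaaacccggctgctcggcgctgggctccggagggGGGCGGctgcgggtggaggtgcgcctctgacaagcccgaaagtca
Fzd4: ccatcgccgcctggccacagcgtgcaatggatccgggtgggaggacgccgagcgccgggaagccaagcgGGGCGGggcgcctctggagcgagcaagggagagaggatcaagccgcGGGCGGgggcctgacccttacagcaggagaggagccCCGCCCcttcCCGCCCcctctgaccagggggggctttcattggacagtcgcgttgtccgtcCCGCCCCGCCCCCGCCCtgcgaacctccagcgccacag
Dvl1: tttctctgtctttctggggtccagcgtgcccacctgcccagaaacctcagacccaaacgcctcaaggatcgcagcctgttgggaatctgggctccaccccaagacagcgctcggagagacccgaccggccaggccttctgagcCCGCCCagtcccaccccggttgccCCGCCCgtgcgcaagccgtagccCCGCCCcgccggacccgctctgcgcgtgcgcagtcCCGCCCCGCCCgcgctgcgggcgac

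The Dkk1 window differed from the other 3 in its motifs. It held CTTTGAA from 117 to 111 bases before the start, TATAAA from 54 to 49 bases before it, and no GGGCGG. The Fzd4, Dvl1 and Wnt3 windows held 7, 5 and 2 GGGCGG matches, several of which share bases in Fzd4 and Dvl1, and neither of the other motifs. Of 54 windows for 45 of the 66 genes, some of which have several starts, the Tcf/Lef core was in 3 (5.56%; Dkk1, Wnt5b and Wnt11), beside 7.48% of all 32851 windows of the same length. TATAAA was in 14.8% of the members' windows and 12.4% of all, and GGGCGG in 68.5% and 32.7%. These are matches of letters and say nothing of binding. The deposited gene models of Dkk1, Wnt3 and Fzd4 begin 169, 25 and 11 bases before the RefSeq start, so part of those windows lies inside the deposited gene. In the Dkk1 window that part holds both marked matches, so they lie after the deposited start of the gene.

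Of the 10 Frizzled receptors, the membrane proteins that bind Wnts, 5 were tested. Limma called 2 of these, in opposite directions, beside 16.0% of all tested genes. Of the 2, Fzd6 reached the minimum only through the Prox1 libraries, so this count is a description. Fzd6, known in the mouse for planar polarity of hair and inner ear, read 36 and 34 normalised counts in the Prox1 libraries compared with 6 and 2 in the GFP libraries. It was near the lower limit in GFP cells, below the level of 3 reads in GFP replicate 2, and clearly detected in both Prox1 libraries. The means were 35 ± 1.41 and 4.0 ± 2.83 (SD, n = 2), 8.75-fold higher in Prox1 cells, with a log2 difference of 2.97 ± 0.62 (SE; limma adjusted p = 0.00689). For Fzd6 the DESeq adjusted p of the authors' deposited table was 0.0426. Fzd6 (ENSMUSG00000022297) lies at chr15:39006280-39038186 on the plus strand.

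Fzd4, which also serves as the receptor for Norrin in retinal vessels, read 27 and 50 normalised counts in the Prox1 libraries compared with 109 and 94 in the GFP libraries. All Prox1 values were under all GFP values. The means were 38.5 ± 16.3 and 101.5 ± 10.6 (SD, n = 2), 2.64-fold lower in Prox1 cells, with a log2 difference of -1.44 ± 0.36 (SE; limma adjusted p = 0.0176), and the DESeq adjusted p in the authors' deposited table was 0.158. The gene (ENSMUSG00000049791) lies at chr7:89404355-89413134 on the plus strand. With a library left out, the log2 difference of Fzd4 was -1.0 without Prox1 replicate 1 and -1.87 without Prox1 replicate 2, and that of Fzd6 ranged from 2.36 to 3.58, the last without GFP replicate 1 (17.5-fold higher); the adjusted p ranged from 0.162 to 0.284 and from 0.171 to 0.246.

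Fzd5, Fzd3 and Fzd7 overlapped between the groups. Fzd5 read 124 and 83 normalised counts against 141 and 109 (log2 difference -0.29 ± 0.30, SE; limma adjusted p = 0.550), and Fzd3, a receptor needed for axon tracts in the mouse, 47 and 67 against 40 and 52 (0.29 ± 0.36; adjusted p = 0.614). Fzd7 read 28 and 38 against 39 and 30 (-0.07 ± 0.40; adjusted p = 0.930). Fzd9, at 1 and 2 against 4 and 4 normalised counts, and Fzd2, at 2 and 2 against 0 and 3, were too low to test, and Fzd1, Fzd8 and Fzd10 were at 0 throughout. Summed over the 10 genes, Frizzled transcripts came to 265 to 276 normalised counts in Prox1 cells and 294 to 339 in GFP cells.

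**Figure D3:**
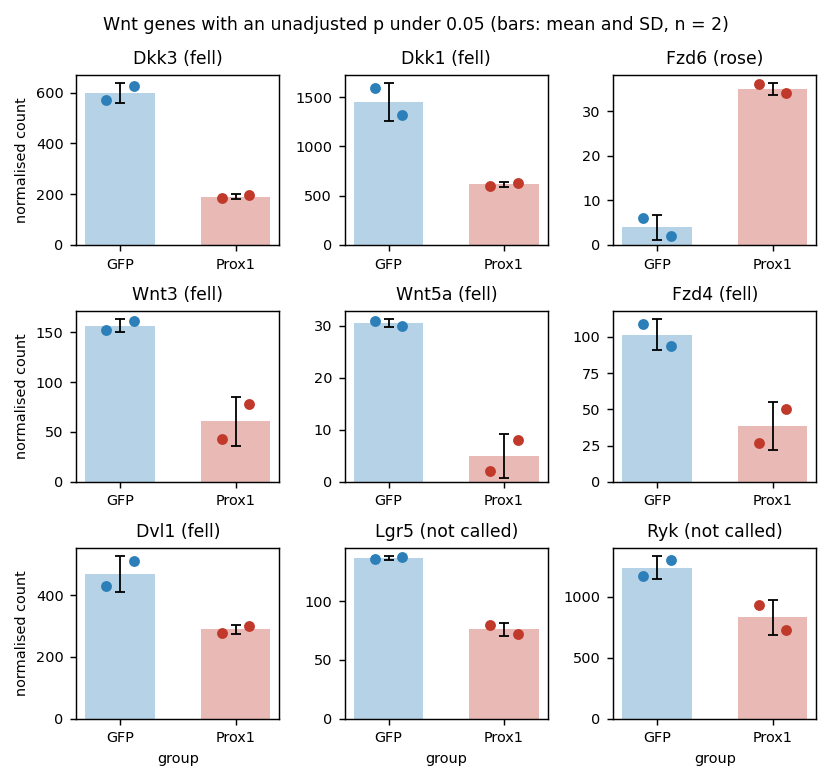
Normalised counts (vertical axes, starting at 0) of the 9 genes with an unadjusted p under 0.05, one panel each. Points are libraries, bars are group means and error bars the SD (n = 2). The genes were picked by p from these same values, so the lack of overlap in each panel adds no support. Of all tested genes 58.8% did not overlap between groups. Lgr5 and Ryk did not pass the adjusted threshold.

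None of the co-receptors passed the test: limma called 0 of 3, beside 16.0% of all tested genes. At an unadjusted p under 0.05 there was 1 (Ryk), beside 31.7% of all tested genes. The authors' deposited table calls 0, beside 4.62% of all genes with a value there. With 3 genes tested, these counts do not set the co-receptors apart from all genes. Ryk, the Wnt receptor with an inactive kinase domain that is known for repelling axons, read 930 and 730 normalised counts in the Prox1 libraries compared with 1173 and 1305 in the GFP libraries. The groups did not overlap, and the means were 830.0 ± 141 and 1239.0 ± 93.3 (SD, n = 2), with a log2 difference of -0.59 ± 0.22 (SE; limma adjusted p = 0.0815). The 2 beta-catenin branch co-receptors lay on opposite sides of 0. Lrp6 read 229 and 238 against 171 and 164 normalised counts (log2 difference 0.48 ± 0.23, SE; adjusted p = 0.182), and Lrp5 28 and 29 against 48 and 41 (-0.62 ± 0.38; adjusted p = 0.287). For each of these the libraries of the groups did not overlap, as for 58.8% of all tested genes. Ror2, a receptor for Wnt5a, had at most 2 normalised counts in a library and Ror1 was at 0.

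In the R-spondin module, Lgr receptors and R-spondins keep the ubiquitin ligases Znrf3 and Rnf43 from removing Frizzled receptors. Limma called 0 of its 3 tested genes, beside 16.0% of all tested genes, and 1 (Lgr5) had an unadjusted p under 0.05, beside 31.7%. The authors' deposited table calls 0, beside 4.62% of all genes with a value there. These counts, too, do not set the module apart from all genes. Lgr5, the receptor known as a stem cell marker in the gut, read 80 and 72 normalised counts in the Prox1 libraries compared with 136 and 138 in the GFP libraries. Replicates were close in both groups, with means of 76.0 ± 5.66 and 137.0 ± 1.41 (SD, n = 2), a log2 difference of -0.84 ± 0.27 (SE) and an adjusted p of 0.0530. Lgr5 passed in 2 of the 10 other settings that kept all 4 libraries: TMM scaling (limma adjusted p = 0.0499) and a minimum mean of 50 (0.0448). Its limma adjusted p was 0.0841 without a variance trend and 0.144 with no minimum. The authors' deposited table gives Lgr5 a DESeq adjusted p of 0.408. Its relative Lgr4 read 59 and 66 against 68 and 42 normalised counts (log2 difference 0.22 ± 0.35; adjusted p = 0.709), and Znrf3 71 and 94 against 77 and 138 (-0.33 ± 0.33; adjusted p = 0.537). Both overlapped between groups. Rnf43, Rspo1 and Rspo2 read at most 5 normalised counts, and Lgr6, Rspo3 and Rspo4 were at 0 in every library.

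Of the cytoplasmic components 1 of 4 tested genes fell, beside 8.41% of all tested genes called lower. Dvl1 is a Dishevelled protein, which carries the signal from Frizzled. It read 278 and 300 normalised counts in the Prox1 libraries compared with 428 and 509 in the GFP libraries. The groups did not overlap, at means of 289.0 ± 15.6 and 468.5 ± 57.3 (SD, n = 2), 1.62-fold lower in Prox1 cells. The log2 difference was -0.69 ± 0.22 (SE), and the limma adjusted p of 0.0494 was next to the threshold: it was 0.0505 with a pseudocount of 0.5, and between 0.194 and 0.284 with 1 library left out. In the authors' deposited table the DESeq adjusted p was 0.376. Dvl1 (ENSMUSG00000029071) lies at chr4:155847402-155859303 on the plus strand and overlaps Tas1r3 on the opposite strand, which had at most 4 normalised counts.

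The other Dishevelled genes did not pass. Dvl2 read 487 and 692 normalised counts against 431 and 481 (log2 difference 0.35 ± 0.23, SE; limma adjusted p = 0.327), with both Prox1 libraries above both GFP libraries. It overlaps Acadvl on the opposite strand, at 156 to 220 normalised counts, and Mir324 on its own strand, at 6 to 22, and whether counting used strand is not given in the sources used here. Dvl3 read 6 and 4 against 12 and 14 normalised counts and was below the minimum. The Axin scaffolds hold the complex that breaks down beta-catenin. Axin1 read 104 and 135 against 172 and 125 (log2 difference -0.31 ± 0.28; adjusted p = 0.493) and overlapped between groups, while Axin2, the scaffold that is itself a widely used target of the pathway, read 14 and 13 against 25 and 18 without overlap (-0.62 ± 0.50; adjusted p = 0.435). Nkd1 and Nkd2, which bind Dishevelled, were at 0.

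Of the nuclear Tcf and Lef factors, the DNA-binding partners of beta-catenin, limma called 0 of 2 tested genes, beside 16.0% of all tested genes. At an unadjusted p under 0.05 there were 0, beside 31.7% of all tested genes, and 0 are called in the authors' deposited table. Tcf7l2 read 165 and 159 in the Prox1 libraries compared with 169 and 232 normalised counts in the GFP libraries. The groups lay apart by a small margin, and the log2 difference was -0.29 ± 0.25 (SE; adjusted p = 0.475). Tcf7l1, known mainly as a repressor, read 26 and 8 against 4 and 6 normalised counts (1.40 ± 0.72; adjusted p = 0.204), with the 2 Prox1 libraries far apart. Lef1 and Tcf7 had at most 3 normalised counts in the Prox1 libraries and 0 in both GFP libraries.

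Levels of different genes were set side by side per kilobase of the authors' gene length. Libraries of this kind read transcript ends, so the division can lower the value of long genes. On that scale Dkk1 was first in both groups, with a mean of 239 normalised counts per kilobase in Prox1 cells and 565 in GFP cells. In GFP cells Dkk3 followed at 174, Dvl1 at 99.7, Ryk at 66.2, Dvl2 at 46.2 and Wnt3 at 37.8. In Prox1 cells the order after Dkk1 was Dvl1 at 61.5, Dvl2 at 59.7, Dkk3 at 55.1 and Ryk at 44.3. There the Dvl2 libraries spanned those of Dvl1 and Dkk3 and overlapped those of Ryk. Among the 3 tested ligands, Wnt3 was highest per kilobase in both groups (14.6 in Prox1 cells), followed in GFP cells by Wnt5a at 3.68 and Wnt4 at 2.74, and in Prox1 cells by Wnt4 at 5.59 and Wnt5a at 0.603. The tested Frizzled genes ran from Fzd5 at 22.6 over Fzd4 at 16.8, Fzd3 at 10.9 and Fzd7 at 10.5 to Fzd6 at 1.39 in GFP cells. In Prox1 cells the order was Fzd5 at 18.7, Fzd3 at 13.6, Fzd6 at 12.1, Fzd7 at 10.1 and Fzd4 at 6.39. The libraries of Fzd3 and Fzd7 overlapped in both groups. Lrp6 stood above Lrp5 in both groups, at 22.1 and 15.8 against 0.976 and 1.52 normalised counts per kilobase.

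**Figure D4:**
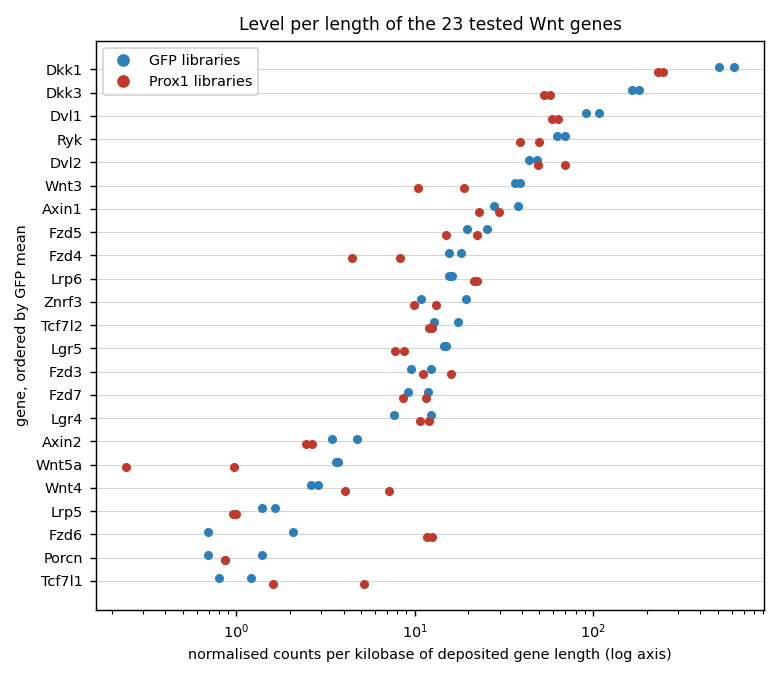
Normalised counts per kilobase of deposited gene length (horizontal log axis) of the 23 tested genes, ordered by the mean of the GFP libraries; each point is a library. Dkk1 is highest in both groups, at means of 239 and 565, and Fzd6 and Wnt5a show the widest separation between groups.

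Other genes of the pathway were taken from lists of textbook components. Of 19 genes of beta-catenin breakdown 16 were tested. Limma called 0 of the 16, beside 16.0% of all tested genes, and 0 had an unadjusted p under 0.05, beside 31.7%. The authors' deposited table calls 0 of them, beside 4.62% of all genes with a value there. The median log2 difference was -0.08. Ctnnb1, which encodes beta-catenin, read 3482 and 3093 normalised counts in the Prox1 libraries compared with 3642 and 3149 in the GFP libraries (log2 difference -0.05; limma adjusted p = 0.912). Its kinase Gsk3b read 470 and 566 against 687 and 696 (-0.42; adjusted p = 0.190), without overlap, and the scaffold Apc 1018 and 890 against 1072 and 1210 (-0.26; adjusted p = 0.430). Ctnnb1 and Apc belong to 50 genes of a cancer hotspot amplicon panel, which were left out in an alternative fit. A p over the threshold does not show that these levels were equal.

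Of 17 gene identifiers of nuclear cofactors 14 were tested and 1 fell, or 7.14% called beside 16.0% of all tested genes, with a median log2 difference of -0.17. At an unadjusted p under 0.05 there were 6 of the 14, beside 31.7% of all tested genes. The groups did not overlap for 12 of the 14 (7 lower, 5 higher in Prox1 cells), beside 58.8%. The called gene was Tle3, a Groucho-type co-repressor that binds Tcf factors, at 311 and 314 against 506 and 531 normalised counts, 1.66-fold lower in Prox1 cells (limma adjusted p = 0.0336). Of 19 planar polarity genes 10 were tested, and 1 rose and 1 fell, with a median of -0.28; at 20.0% called, this was near the 16.0% of all tested genes. The authors' deposited table calls 0 genes of either list. Daam1, the formin that links Dishevelled to actin, read 223 and 357 against 133 and 114 normalised counts, 2.35-fold higher in Prox1 cells (adjusted p = 0.0119). Vangl2, a membrane protein at the core of planar polarity, read 97 and 146 against 210 and 283, 2.03-fold lower (adjusted p = 0.0254). In all 3 genes the groups did not overlap, as for 58.8% of all tested genes. These calls were lost when any 1 of the 4 libraries was left out (0 called in each list), and 0 genes of either list were called without a variance trend.

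Of 23 further secreted or membrane regulators 8 were tested, and 3 fell and 1 rose, or 4 of 8 called beside 16.0% of all tested genes, with a median log2 difference of -0.53. The authors' deposited table calls 1 of the 8, Igfbp4. Igfbp4 is an insulin-like growth factor binding protein that can also block Frizzled and Lrp6. It read 11 and 29 normalised counts in the Prox1 libraries compared with 133 and 88 in the GFP libraries, 5.53-fold lower (limma adjusted p = 0.00316). The size rested on single libraries: it was 3.81-fold lower without Prox1 replicate 1 and 10.0-fold lower without Prox1 replicate 2. Apcdd1, a membrane inhibitor of Wnt signalling, read 25 and 30 against 81 and 90, 3.11-fold lower (adjusted p = 0.00833). Serpinf1, a secreted serpin that binds Lrp6, read 4 and 6 against 23 and 26 (adjusted p = 0.0283), and reached the minimum only through the GFP libraries, so the count and median of this list are a description. Kremen1, the receptor with which Dkk1 takes Lrp6 off the surface, moved the other way, at 113 and 124 against 45 and 58 normalised counts, 2.30-fold higher in Prox1 cells (adjusted p = 0.0182). The groups did not overlap for any of these 4 genes, as for 58.8% of all tested genes. With any 1 library left out, limma called 0 of the 8.

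Of 33 genes commonly cited as targets of beta-catenin, 9 are members described above, Dkk1 among them. Of the 24 others 12 were tested, and 2 rose and 3 fell, or 41.7% called beside 16.0% of all tested genes, with a median log2 difference of -0.14. The authors' deposited table calls 0 of the 12. Those that fell were Myc, at 78 and 59 against 178 and 162 normalised counts (2.48-fold lower; limma adjusted p = 0.00824), Jun, at 857 and 705 against 1305 and 1679 (1.91-fold lower; adjusted p = 0.0139), and Apcdd1. Those that rose were the Eph receptors Ephb4, at 33 and 23 against 2 and 4 (log2 difference 2.88; adjusted p = 0.0099), and Ephb3, at 19 and 19 against 4 and 2 (2.37; adjusted p = 0.0327). Both were low in GFP cells and reached the minimum only through the Prox1 libraries, so this count and median too are a description. Ccnd1, which encodes cyclin D1, read 1381 and 1134 against 1253 and 1263 normalised counts and overlapped between groups (log2 difference -0.01; adjusted p = 0.985). The list thus held genes called in both directions, and none of its calls was made with any 1 library left out.

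**Figure D5:**
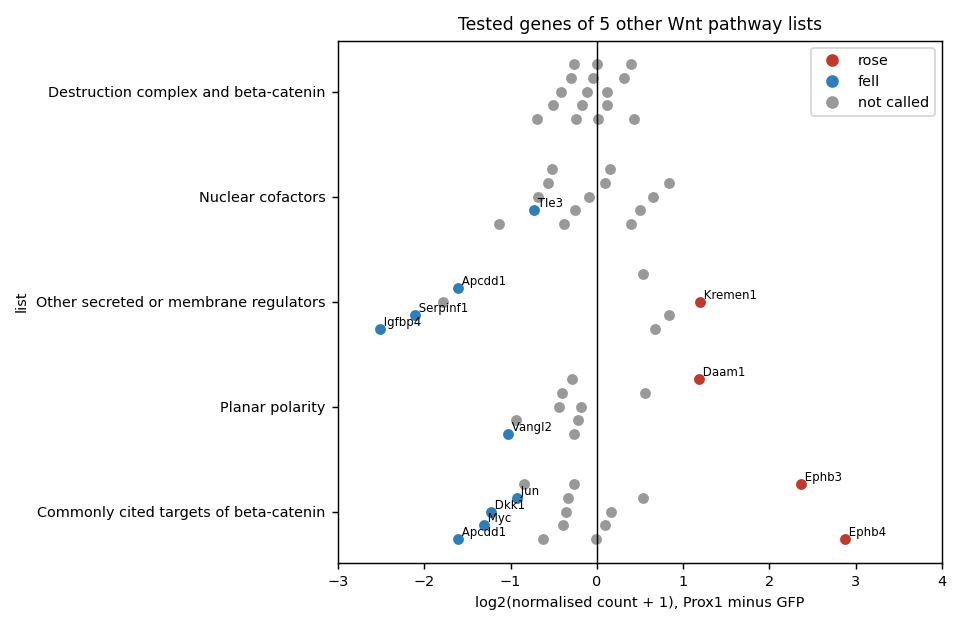
Difference between Prox1 and GFP cells on the log2(normalised count + 1) scale (horizontal axis) for each tested gene of the 5 lists (rows; the vertical scatter within a row only separates points). Named, coloured points passed an adjusted p of 0.05 (limma), as did 16.0% of all tested genes. None of the 16 genes of the destruction complex did. The 4 called among the other secreted or membrane regulators run from Igfbp4 at -2.52 to Kremen1 at 1.20.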

How the data were processed

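Total RNA of induced Neuro2A cells was made into 3′ messenger RNA libraries (QuantSeq) and read on an Ion Proton, per the labels' protocols. Groups and replicate numbers came from the sample titles. The deposited values are the log2 of a normalised count plus 1 made by the authors, per the file headers. Undoing the log2 gave whole numbers (100% of values, largest relative deviation 3.47e-09), which means that the authors had rounded them. A second deposited signal is the normalised count divided by a gene length, and the authors' p-value, adjusted p and fold from DESeq are given for 11933 genes, per the file headers. Per the submitters' processing notes the build was mm10. The sources used here do not give the aligner, the counter, use of strand, annotation release or filters.

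log2(normalised count + 1) was tested with limma 3.58.1 in R 4.3.3 (lmFit, eBayes with a mean-variance trend), comparing Prox1 with GFP in the 13290 genes whose mean over the 4 libraries was 10 or more. The test was two-sided; p was adjusted by Benjamini-Hochberg over those genes, and 0.05 was the threshold. The log2 difference on this scale understates the change of low genes, so ratios of mean normalised counts are given too. Reads per library were estimated from the whole numbers that rounding leaves unused (size factors 1.0194, 0.9708, 0.8292 and 1.2507 for Prox1 1 and 2 and GFP 1 and 2). Replicates were further apart than sampling noise (chi-square over its degrees of freedom 19.2 in Prox1 and 20.4 in GFP cells). Ratios with 1 to 3 counts in a group have exact 95% intervals. The limma fit and the size factor estimate were tested on simulated data.

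Values in all 4 libraries are given for each called member, each with an unadjusted p under 0.05 and each with a mean of at least 50 in a group; other members are named with values or a range, and of the other lists the called genes, up to 3 per direction by p. Members whose values are given outside this rule, and Jun, Ctnnb1, Apc, Gsk3b and Ccnd1, were chosen after their values were seen. Some marker genes are not reported here. The members and lists were chosen with earlier results of these data known. Alternatives were other scalings, minimums, pseudocounts and variance models, a replicate block, no panel genes, and each library left out.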

Additional observations from a re-analysis of the deposited data

How the results depend on the processing

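Limma called 7 Wnt genes under cyclic loess scaling, a pseudocount of 5, precision weights and without the 50 panel genes, and 8 under TMM scaling, Lgr5 being the added one. It called 6 with a pseudocount of 0.5, where Dvl1 missed the threshold, and 6 with a minimum mean of 50, where Lgr5 passed and Fzd6 and Wnt5a were not tested. Without a variance trend 4 were called (Wnt3 adjusted p = 0.0596, Fzd4 0.0608, Dvl1 0.135), as were 1057 genes in the whole table in place of 2124, 0 nuclear cofactors and 0 planar polarity genes. With no minimum, limma called 0 genes, 0 Wnt genes and 0 in each list, with 5032 genes and 17 Wnt genes at an unadjusted p under 0.05; the genes added there have a mean below 10. Without any 1 library every count was 0 (0 to 0 for the Wnt genes and each list), with fewer samples to estimate the spread, and the lone library assumed to vary like the other group. No setting turned the direction of a called Wnt gene; among those not called, Fzd7, Fzd5, Porcn, Znrf3 and Lgr4 changed sign or reached 0 with a library left out. With a minimum mean of 50, limma called 2 nuclear cofactors in place of 1. With the replicate number as a block it called 2528 genes, 7 Wnt genes and 2 nuclear cofactors. The deviations of same-numbered libraries correlated at -0.051 across genes. That value cannot show whether same-numbered libraries were made together, and the labels do not say. Levels under 3 reads could not be told from 0, and 43 of the 66 genes were too low to test. With 2 libraries per group an exact permutation test of a single gene goes no lower than p = 0.333, so each p rests on the spread limma shares across genes.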
